A study of Pseudotaxus chienii with 9 samples.

Results

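The WRKY transcription factors of the yew relative Pseudotaxus chienii were taken as every gene whose description in the deposited table contains the word WRKY, which gave 32 of the 26827 genes. They were followed in polyA RNA sequencing of leaves, in 9 libraries. Leaves given methyl jasmonate (MeJA, a volatile form of the plant wound and defence hormone) for 1 day, leaves given it for 2 days, and CK leaves, whose label names no MeJA, had 3 libraries each. Neither the dose nor the way of treatment, nor a mock treatment or sampling time of CK, is given in the sources used here. The labels do not say whether the 3 libraries of each group are from different plants, and the p-values therefore cover the spread among libraries only, part of which may be technical.

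WRKY factors are a large family of plant regulators named for a short conserved peptide in their DNA-binding domain, which recognises W-box elements in promoters. They act in defence against microbes, wounding, senescence and nutrient stress, downstream of MAP kinase cascades and calcium signals and with VQ-motif proteins as partners. In cultured cells of Taxus chinensis, a related yew, a WRKY factor has been reported to act on the promoter of a gene of paclitaxel synthesis. The descriptions used here name the closest match in another species, so a number such as WRKY41 is the number of that match and not a tested identity.

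Total estimated counts per library ran from 48893949 to 58703021, and 31 of the 32 WRKY genes had enough counts to be tested. Day 1 library 2 stood apart. Across genes, which are not replicates, its log2 CPM correlated with those of the other day 1 libraries at 0.829 and 0.818 (Pearson), against 0.930 between these and 0.936 to 0.945 among CK libraries. A list of 15 green leaf genes (Rubisco small subunit, chlorophyll-binding proteins, photosystem I subunits) summed to 665 to 5401 FPKM at day 1, 517 to 3159 at day 2 and 7281 to 9446 in CK, with 1 to 4 of them at 0 in each library. Its lowest sums were in library 2 of each day. The 29 woody tissue genes summed to 41.7 to 136 FPKM at day 1, 50.4 to 60.7 at day 2 and 38.7 to 48.1 in CK, with 6 to 17 at 0, and the highest sum was in day 1 library 2. The 19 epidermis genes summed to 113 to 164 FPKM at day 1, 116 to 172 at day 2 and 143 to 238 in CK (2 to 10 at 0). The 2 guard cell genes summed to 1.85 to 3.60 FPKM at day 1, 1.25 to 1.70 at day 2 and 2.49 to 4.11 in CK (none at 0). The green leaf sum was lower in every treated library than in every CK library, and the part of these marker differences in the WRKY results was not tested. In such bulk samples more cells of a type and more RNA per cell cannot be told apart.

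Many WRKY genes were higher after MeJA. At day 1, 13 of the 31 tested genes rose and 0 fell (edgeR adjusted p at or under 0.05 over all genes), where 4.34% of all 22384 genes tested rose and 1.00% fell. Genes past this threshold are named as called. At day 2, 9 rose and 0 fell, against 4.09% and 0.858% of all genes. DESeq2, which called 3751 and 3932 of all 26827 genes in either direction, called 1 WRKY gene lower at each day, PchiChr12G332980. At an unadjusted edgeR p under 0.05 in either direction there were 23 WRKY genes at day 1 and 18 at day 2 (23.8% and 24.7% of all genes). The same 9 genes had risen at day 1, and 3.08% of all genes rose at both days. The median log2 fold change of the WRKY genes was 2.16 at day 1 and 1.65 at day 2, where that of all genes tested was 0.03 at both, and 29 and 27 of the 31 had a positive estimate (51.9% and 51.6% of all genes). Some of the positive day 1 estimates rested on day 1 library 2. Those of PchiChr12G332880, PchiChr3G094160, PchiChr3G094170 and PchiChr9G248170, none of them called, were negative without it. Levels are given in FPKM (fragments per kilobase of transcript, scaled to library depth). The summed level of the 32 genes was 1186, 2140 and 1012 FPKM in day 1 libraries 1, 2 and 3. It was 1458, 862 and 1105 FPKM in day 2 libraries and 610, 368 and 325 FPKM in CK libraries. Every treated library thus lay above every CK library. In all 13 genes called at day 1 and all 9 called at day 2, each treated library had more FPKM than each CK library. As these genes were called on the same libraries, such a gap is no separate support. Over the 31 tested genes such a gap was found for 17 at day 1 and 18 at day 2, against 13.5% and 18.1% of all genes.

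**Figure D1:**
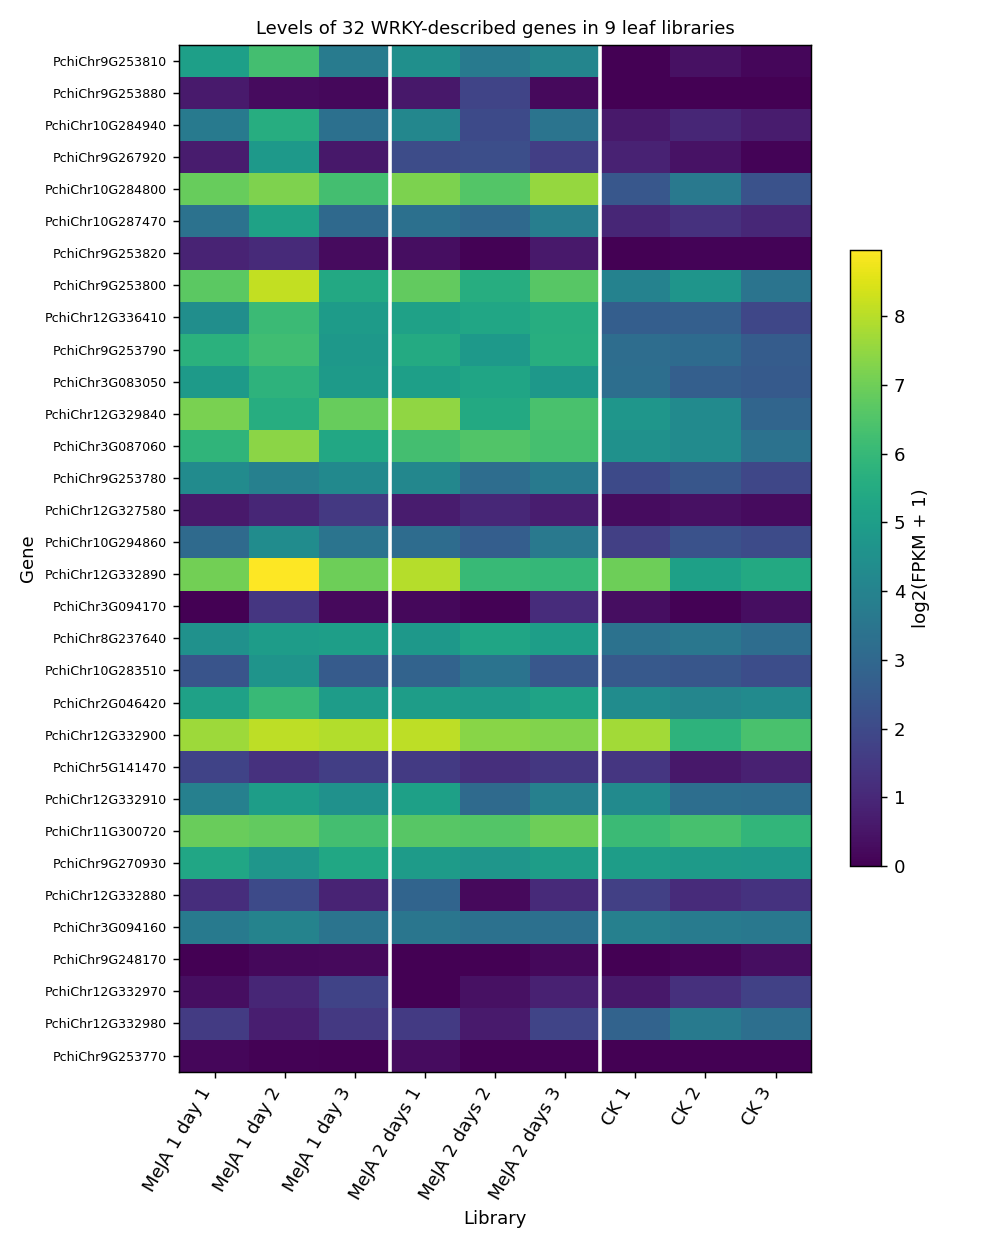
Levels of the 32 WRKY-described genes, as log2(FPKM + 1) in colour, in the 3 libraries of MeJA for 1 day, MeJA for 2 days and CK, with genes ordered by their day 1 log2 fold change and PchiChr9G253770, which was not tested, in the last row. Most rows in the upper part are brighter in the 6 treated libraries than in the 3 CK libraries, and several are brightest in MeJA 1 day library 2.

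**Figure D2:**
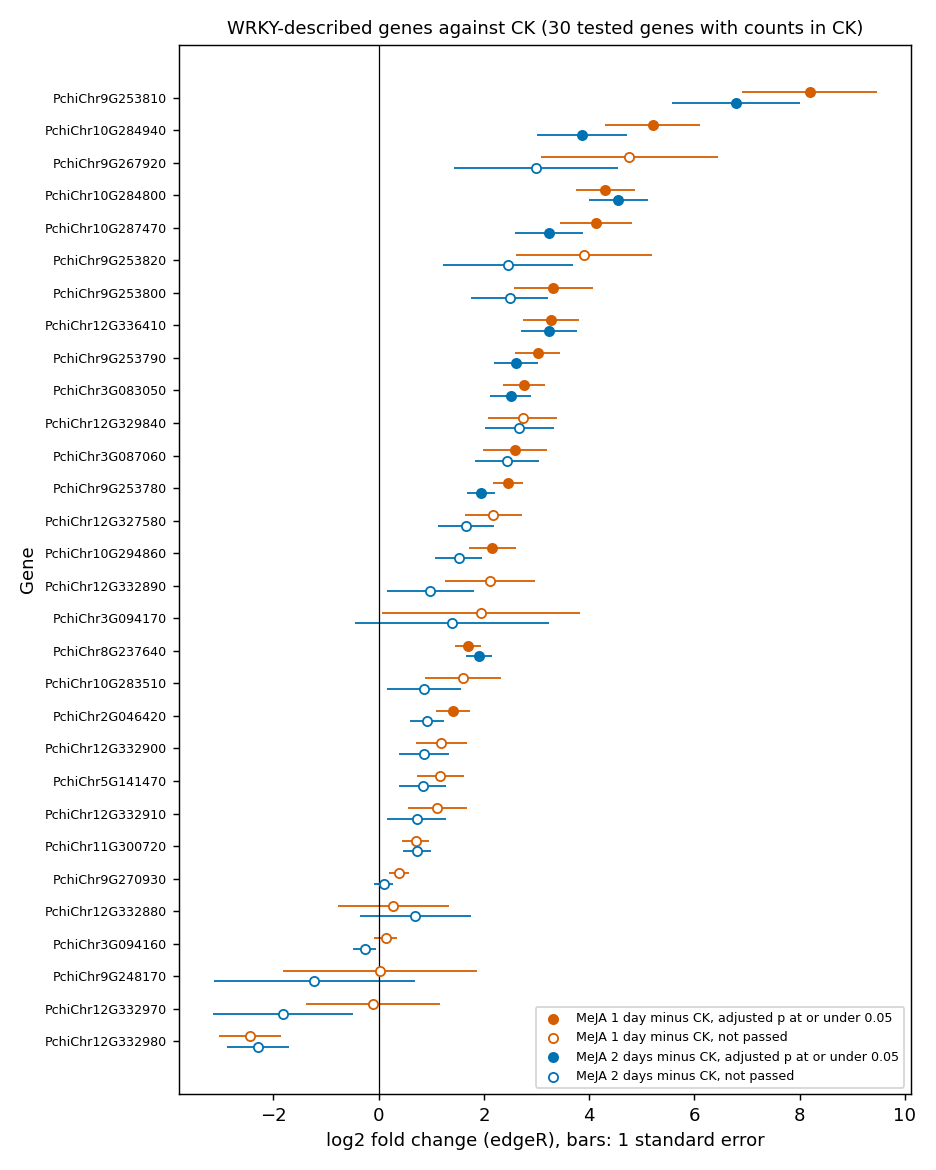
Log2 fold changes of the 30 tested WRKY genes with counts in CK, for MeJA 1 day minus CK and MeJA 2 days minus CK, with bars of 1 standard error and filled points for edgeR adjusted p at or under 0.05. The called genes lie between 1.41 and 8.19 at day 1, and the lowest row, PchiChr12G332980, is the one with both estimates under -2.

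A run of neighbouring WRKY copies on chromosome 9 held the largest called change. There, 6 WRKY genes stood in consecutive rows of the table, from PchiChr9G253770 to PchiChr9G253820, over 1572587 bases of block 1 (157256168 to 158828754; the table gives each position within a numbered block of a chromosome). PchiChr9G253880, also a WRKY gene, followed after 2 other rows. The gene numbers skip some values here, so the genome may hold genes between them that the table does not list. All 7 carry the description of a Taxus WRKY factor. Their sequences are not used here, so how alike the copies are is not known here. The counting may have divided, or left out, reads shared by copies of near-identical sequence.

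PchiChr9G253780 (plus strand, 157302608 to 157304222), whose annotation includes responses to wounding, salicylic acid and chitin, had 18.9, 13.9 and 18.1 FPKM in day 1 libraries 1, 2 and 3, 16.7, 8.29 and 11.6 FPKM in day 2 libraries, and 3.08, 4.28 and 2.76 FPKM in CK libraries. No treated library overlapped CK, and library 2 was the lowest of each day. It rose by 2.46 on the log2 scale at day 1 (SE 0.28, edgeR adjusted p = 0.00705) and 1.94 at day 2 (SE 0.27, edgeR adjusted p = 0.0117). Its day 1 change passed in all 17 alternative fits, as that of no other WRKY gene did. PchiChr9G253810 (plus strand, 157877070 to 157879197) had 32.2, 77.7 and 12.1 FPKM at day 1, 21.1, 12.1 and 15.8 FPKM at day 2, and 0, 0.329 and 0.127 FPKM (0, 22 and 8 counts) in CK, where it was almost silent. All 6 treated libraries lay far above the 3 CK libraries. On the log2 scale the difference was 8.19 at day 1 (SE 1.28, edgeR adjusted p = 0.0146) and 6.78 at day 2 (SE 1.22, edgeR adjusted p = 0.0233). Over the alternative fits these sizes ran from 4.83 to 9.51 and from 3.89 to 8.11, so they are uncertain.

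The copies between this pair were also higher. PchiChr9G253790 (plus strand, 157396029 to 157397508) had 52.5, 72.5 and 26.3 FPKM at day 1, 44.1, 27.0 and 47.8 FPKM at day 2, and 8.23, 7.71 and 5.06 FPKM in CK. It rose at both days, by 3.02 on the log2 scale (SE 0.43, edgeR adjusted p = 0.0110) and 2.61 (SE 0.42, edgeR adjusted p = 0.0181). PchiChr9G253800 (minus strand, 157696332 to 157698077), the copy with the highest level, had 102, 283 and 42.0 FPKM at day 1, 112, 47.3 and 98.5 FPKM at day 2, and 14.5, 24.7 and 9.81 FPKM in CK. The day 1 libraries spread widely, with library 2 highest, and none overlapped CK. It rose at day 1 (log2 3.32, SE 0.75, edgeR adjusted p = 0.0451), and the day 2 estimate of 2.49 did not pass (SE 0.73, edgeR adjusted p = 0.0905).

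The copies at the ends of the run were scarce. PchiChr9G253820 (minus strand, 158497972 to 158828754) had 0.854, 1.08 and 0.212 FPKM at day 1, 0.267, 0.0346 and 0.530 FPKM at day 2, and 0, 0.0700 and 0.0698 FPKM in CK, and passed at neither day (edgeR adjusted p = 0.124 and 0.261). PchiChr9G253880 (minus strand, 160154432 to 160156353) had 30, 11 and 8 counts at day 1, 24, 134 and 11 at day 2 and 0 in every CK library. Against a floor of 3 counts over the CK group it was at least 17.0-fold higher at day 1 and at least 58.8-fold higher at day 2, but did not pass (edgeR adjusted p = 0.0819 and 0.0508). Each bound rested largely on 1 library, and was 9.93-fold without day 1 library 1 and 18.1-fold without day 2 library 2. PchiChr9G253770 (minus strand, 157256168 to 157274971) had 10, 4 and 0 counts at day 1, 17, 0 and 5 at day 2 and 0 in CK, too few to test. Of the 2 genes listed before the run, the 2 listed inside it before PchiChr9G253880 and the 1 listed after it, 4 were tested and none passed at either day (edgeR adjusted p = 0.168 to 0.950).

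**Figure D3:**
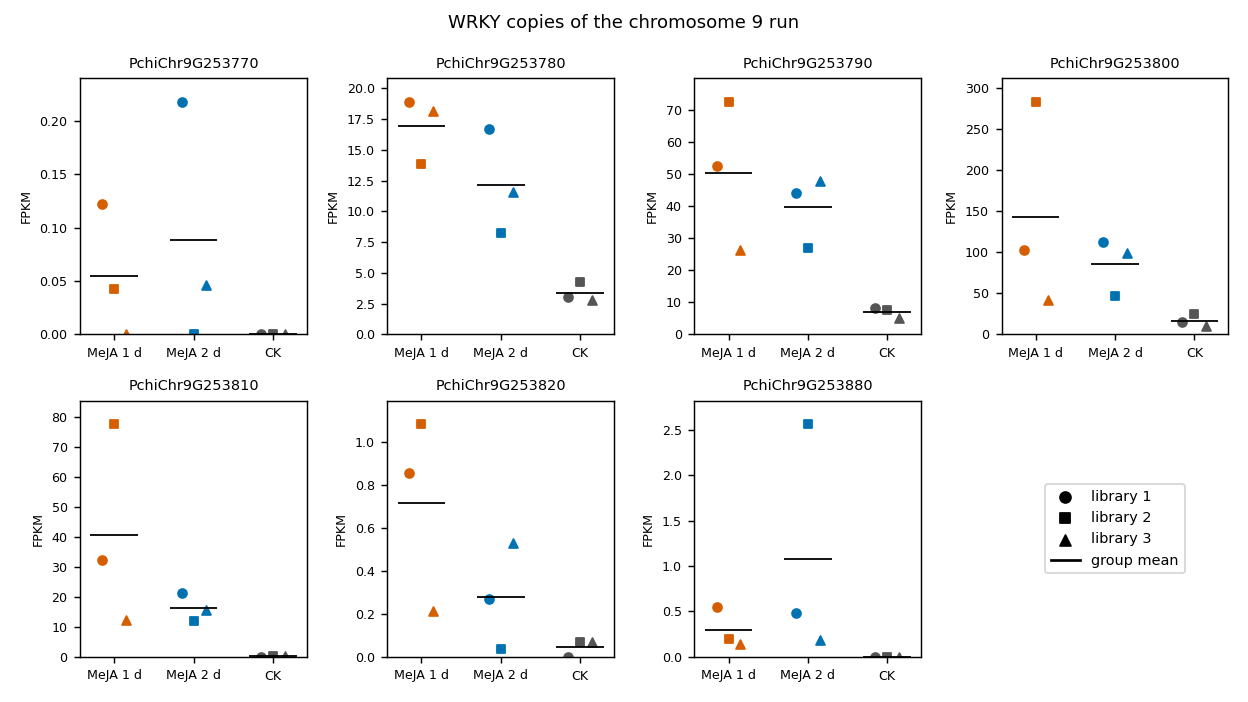
FPKM of the 7 WRKY copies of the chromosome 9 run in MeJA 1 day, MeJA 2 days and CK libraries, each panel on its own axis from 0, with a marker shape for each library number and a line at the group mean. In PchiChr9G253780 to PchiChr9G253810 every treated library is above every CK library, and in PchiChr9G253790, PchiChr9G253800 and PchiChr9G253810 MeJA 1 day library 2 is the highest.

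The pair described as WRKY41, a factor that acts in Arabidopsis in defence and seed dormancy, lies on chromosome 10, block 500000001. PchiChr10G284800 (102364114 to 102366685, minus strand) had 116, 150 and 77.8 FPKM at day 1, 145, 93.6 and 185 FPKM at day 2, and 4.39, 11.2 and 3.76 FPKM in CK. It rose by 4.31 on the log2 scale (SE 0.55, edgeR adjusted p = 0.00953) and 4.55 (SE 0.56, edgeR adjusted p = 0.00961), and no treated library came near CK. PchiChr10G284940 (120471636 to 120473519, plus strand), annotated with a response to abscisic acid, had 11.6, 47.5 and 8.80 FPKM at day 1, 16.6, 2.99 and 9.92 FPKM at day 2, and 0.540, 0.929 and 0.622 FPKM in CK. The groups did not overlap, although library 2 was the highest at day 1 and the lowest at day 2. Its rise on the log2 scale was 5.20 (SE 0.91, edgeR adjusted p = 0.0217) at day 1 and 3.87 (SE 0.85, edgeR adjusted p = 0.0434) at day 2.

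Genes described as WRKY14 and WRKY69, which belong in Arabidopsis to a common subgroup, rose as well. PchiChr10G287470 (WRKY14, chromosome 10, block 500000001, 366223327 to 366225928) had 9.35, 34.7 and 7.46 FPKM at day 1, 8.79, 7.44 and 13.4 FPKM at day 2, and 0.928, 1.44 and 0.988 FPKM in CK. On the log2 scale it rose by 4.13 (SE 0.68, edgeR adjusted p = 0.0174) at day 1 and 3.24 (SE 0.65, edgeR adjusted p = 0.0333) at day 2. PchiChr8G237640 (WRKY69, chromosome 8, block 499953709, 471620069 to 471623259) was among the most even, with 22.1, 30.3 and 31.2 FPKM at day 1, 26.5, 37.9 and 31.9 FPKM at day 2, and 9.53, 10.6 and 8.14 FPKM in CK. It rose by 1.70 on the log2 scale (SE 0.25, edgeR adjusted p = 0.0117) and 1.91 (SE 0.25, edgeR adjusted p = 0.0100). A second gene described as WRKY14, PchiChr10G294860 (chromosome 10, block 1000000001, 142540781 to 142542774), had 7.48, 19.5 and 9.93 FPKM at day 1, 8.08, 5.42 and 11.4 FPKM at day 2, and 2.27, 3.84 and 3.14 FPKM in CK. It rose at day 1 (log2 2.16, SE 0.45, edgeR adjusted p = 0.0353), and the day 2 estimate of 1.52 did not pass (SE 0.44, edgeR adjusted p = 0.0895).

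WRKY28 and WRKY6 are names of Arabidopsis factors that act in salicylic acid synthesis and in senescence and phosphate starvation, in that order. PchiChr12G336410 (WRKY28, chromosome 12, block 500000001, 210358765 to 210361978) had 20.5, 68.3 and 29.2 FPKM at day 1, 34.0, 38.4 and 47.6 FPKM at day 2, and 5.44, 5.61 and 2.77 FPKM in CK. It rose by 3.27 on the log2 scale (SE 0.53, edgeR adjusted p = 0.0167) and 3.24 (SE 0.53, edgeR adjusted p = 0.0185), with no overlap. The other gene with that name, PchiChr2G046420 (chromosome 2, block 1, 385083832 to 385086498), had 34.1, 64.4 and 30.0 FPKM at day 1, 30.5, 29.2 and 35.4 FPKM at day 2, and 19.4, 16.4 and 18.7 FPKM in CK. It had the smallest called change, a log2 of 1.41 at day 1 (SE 0.33, edgeR adjusted p = 0.0481), and did not pass at day 2 (log2 0.92, SE 0.32, edgeR adjusted p = 0.136). PchiChr3G087060 (WRKY6, chromosome 3, block 1000000001, 160515746 to 160519134) had 57.2, 168 and 40.3 FPKM at day 1, 76.5, 91.4 and 79.6 FPKM at day 2, and 22.2, 18.8 and 9.38 FPKM in CK. Day 1 library 2 was again the highest, while the day 2 libraries lay close together. It rose at day 1 (log2 2.60, SE 0.61, edgeR adjusted p = 0.0498), at the edge of the threshold, and the day 2 estimate of 2.44 did not pass (SE 0.61, edgeR adjusted p = 0.0597).

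Genes named for WRKY2, WRKY3 and WRKY20 differed among themselves. PchiChr3G083050, described as WRKY2 of Ginkgo biloba (chromosome 3, block 1000000001, 3377393 to 3385278), had 28.8, 54.8 and 28.2 FPKM at day 1, 32.3, 37.5 and 26.5 FPKM at day 2, and 8.39, 5.52 and 4.77 FPKM in CK. It rose by 2.76 on the log2 scale (SE 0.40, edgeR adjusted p = 0.0116) and 2.51 (SE 0.40, edgeR adjusted p = 0.0167). PchiChr3G094160, described as WRKY20, had 11.8, 15.0 and 9.90 FPKM at day 1, 10.5, 9.12 and 8.92 FPKM at day 2, and 14.0, 12.4 and 11.0 FPKM in CK, with groups that overlapped at day 1 and passed at neither day (edgeR adjusted p = 0.722 and 0.485). PchiChr3G094170, of the same name, lies within its bounds on the same strand and stayed at or under 1.64 FPKM. How their exons overlap is not known here, so the counting may have divided, or left out, reads shared by the 2. PchiChr10G283510, described as WRKY3, which in Arabidopsis acts against fungi that kill plant tissue, had 4.04, 23.9 and 4.90 FPKM at day 1, 6.29, 9.55 and 4.37 FPKM at day 2, and 4.74, 4.32 and 3.39 FPKM in CK. Only day 1 library 2 stood clearly above CK in the first comparison, and the gene did not pass (edgeR adjusted p = 0.221 and 0.479).

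The most abundant WRKY genes were not among those called. Averaged over the 9 libraries, PchiChr12G332900, PchiChr12G332890 and PchiChr11G300720 had the highest levels, 183, 148 and 92.5 FPKM. PchiChr12G332900 (described as WRKY51) had 202, 268 and 245 FPKM at day 1, 271, 163 and 151 FPKM at day 2, and 212, 54.8 and 83.9 FPKM in CK, where library 1 reached the treated range (edgeR adjusted p = 0.182 and 0.299). PchiChr12G332890 had 133, 498 and 125 FPKM at day 1, 247, 65.0 and 61.3 FPKM at day 2, and 127, 33.0 and 42.3 FPKM in CK (edgeR adjusted p = 0.181 and 0.484). PchiChr11G300720, described as WRKY11 of Ginkgo and annotated to bind calmodulin, had 119, 110 and 76.3 FPKM at day 1, 98.4, 92.8 and 127 FPKM at day 2, and 67.6, 81.8 and 59.2 FPKM in CK (log2 0.70 and 0.73, edgeR adjusted p = 0.162 and 0.145). These levels overlapped with CK at day 1 in all 3 genes, and at day 2 in the first pair.

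PchiChr12G332900 and PchiChr12G332890 belong to a second run, on chromosome 12, which was singled out after its values were seen. It has 4 WRKY genes in consecutive rows of the table, PchiChr12G332880 to PchiChr12G332910, and PchiChr12G332970 and PchiChr12G332980 follow after 4 other rows. PchiChr12G332910 lies within PchiChr12G332900 on the same strand. How their exons overlap is not known here, so the counting may have divided, or left out, reads shared by them. None of these 6 genes passed at either day. PchiChr12G332980, described as WRKY45 of a rice species, was the one WRKY gene whose treated libraries all lay under CK at both days. It had 1.97, 0.693 and 1.80 FPKM at day 1, 1.87, 0.582 and 2.59 FPKM at day 2, and 6.18, 11.5 and 8.58 FPKM in CK. The log2 differences were -2.44 at day 1 (SE 0.59, edgeR adjusted p = 0.0538) and -2.30 at day 2 (SE 0.59, edgeR adjusted p = 0.0636).

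The direct comparison of day 2 with day 1 gave no call among the 31 WRKY genes, nor among all 22384 genes (edgeR, 0% called). At an unadjusted p under 0.05 there were 0 WRKY genes, the lowest p being 0.0866, and 949 of all genes (4.24%), while DESeq2 called 0 WRKY genes and 64 of all genes. In the 13 genes called at day 1, the day 2 minus day 1 log2 difference ran from -1.41 to 0.24 with standard errors of 0.24 to 0.93. Of these 13 differences 11 were negative, which the choice of genes by their day 1 values itself favours. Over the 31 tested genes 25 were negative, against 52.7% of all genes, with a median of -0.42 that was 0.02 without day 1 library 2. So the 4 genes called at day 1 and not at day 2 (PchiChr10G294860, PchiChr2G046420, PchiChr3G087060 and PchiChr9G253800) are not shown to differ between the days.

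Library 2 of day 1 was the highest of its group in 20 of the 31 tested WRKY genes, against 31.7% of all genes tested, and in 11 of the 13 called ones. It was at least 2 times both other day 1 libraries in 11 of the 31, against 9.27% of all genes. The most extreme was PchiChr9G267920, described as WRKY75, a factor that acts in Arabidopsis in phosphate starvation and senescence. It had 0.604, 27.2 and 0.504 FPKM at day 1, 3.27, 3.47 and 2.18 FPKM at day 2, and 0.800, 0.363 and 0.0712 FPKM in CK. Its day 1 log2 fold change of 4.76 did not pass (SE 1.68, edgeR adjusted p = 0.141) and was 0.53 without day 1 library 2. Similarly, PchiChr10G283510 had a day 1 log2 fold change of 1.60, and 0.19 without that library.

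With day 1 library 2 left out, 12 WRKY genes were called higher at day 1, against 4.35% of all genes tested, and 11 of the 13 calls were kept. These 11, in each of which day 1 libraries 1 and 3 both had more FPKM than every CK library, are PchiChr9G253780, PchiChr9G253790, PchiChr9G253810, PchiChr10G284800, PchiChr10G284940, PchiChr10G287470, PchiChr10G294860, PchiChr12G336410, PchiChr2G046420, PchiChr3G083050 and PchiChr8G237640. Their calls thus did not rest on that library. They were not equally stable over the 17 alternative fits. At day 1 PchiChr2G046420 was called in 5 of these fits, PchiChr10G294860 in 8 and the rest in 13 to 17. The size of several changes did rest on day 1 library 2. That of PchiChr9G253780 did not, with a log2 fold change of 2.53 without it (edgeR adjusted p = 0.00689) and 2.46 with it. The log2 fold change without it was 7.21 for PchiChr9G253810 (edgeR adjusted p = 0.0143) and 3.98 for PchiChr10G284800 (edgeR adjusted p = 0.0110). Besides PchiChr9G253810, the fold of 4 kept genes shrank by over 1.5 times. Without the library the log2 fold change was 3.94 for PchiChr10G284940, 2.98 for PchiChr10G287470, 2.51 for PchiChr12G336410 and 1.56 for PchiChr10G294860 (edgeR adjusted p = 0.0154, 0.00598, 0.0102 and 0.0417). PchiChr3G087060 and PchiChr9G253800 lost the call, at log2 1.63 (edgeR adjusted p = 0.0536) and 2.23 (edgeR adjusted p = 0.0610), although libraries 1 and 3 lay above CK in both. One gene gained it, PchiChr12G329840, described as WRKY51, an Arabidopsis factor at the meeting of salicylate and jasmonate signalling. It had 142, 46.6 and 118 FPKM at day 1, 175, 42.1 and 81.9 FPKM at day 2, and 25.1, 18.3 and 6.57 FPKM in CK, and library 2 was the lowest of each treated group. Its day 1 log2 fold change was 2.74 with all libraries (SE 0.66, edgeR adjusted p = 0.0528) and 3.05 without day 1 library 2 (edgeR adjusted p = 0.0420).

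**Figure D4:**
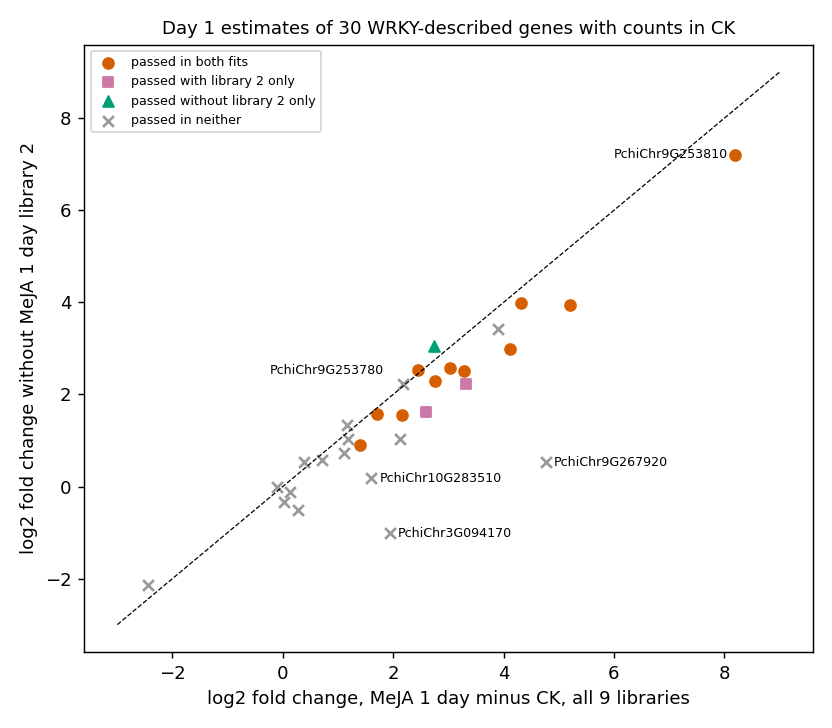
Day 1 log2 fold changes against CK of the 30 tested WRKY genes with counts in CK, from all 9 libraries on the horizontal axis and without MeJA 1 day library 2 on the vertical axis, with a dashed line of equal values and a marker for the fits in which edgeR adjusted p was at or under 0.05. PchiChr9G267920, PchiChr10G283510 and PchiChr3G094170 lie far under the line, and PchiChr9G253780 lies close to it.

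Since all 9 libraries share 1 estimate of the spread, leaving out this library also moved the day 2 comparison. There 16 WRKY genes were called higher, against 8.71% of all genes, with all 9 earlier calls kept. The 7 added were PchiChr10G294860, PchiChr12G329840, PchiChr2G046420, PchiChr3G087060, PchiChr9G253800, PchiChr9G253880 and PchiChr9G267920, with edgeR adjusted p = 0.00851 for PchiChr3G087060 and 0.0461 for PchiChr9G253880 at the ends of the range. PchiChr12G332980 was called lower (log2 -2.29, edgeR adjusted p = 0.0332). Leaving out a CK library instead lowered the counts from those with all 9 libraries, and the counts over all genes with them. Without CK library 1, 2 or 3 the day 1 count was 2, 5 or 1, where 0.521%, 1.46% or 0.569% of all genes were called higher. The day 2 count was 0, 4 or 1, where 0.184%, 1.54% or 0.813% of all genes were. The gene still called at day 1 without CK library 3 was PchiChr9G253780, and at day 2 PchiChr10G284800. The day 2 count was also 5 without day 2 library 2 and 4 without day 2 library 3, against 1.75% and 1.90% of all genes. The median WRKY log2 fold change at day 1 stayed between 1.57 and 2.43 with any 1 of the 9 libraries left out, and at day 2 between 1.64 and 1.93.

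**Figure D5:**
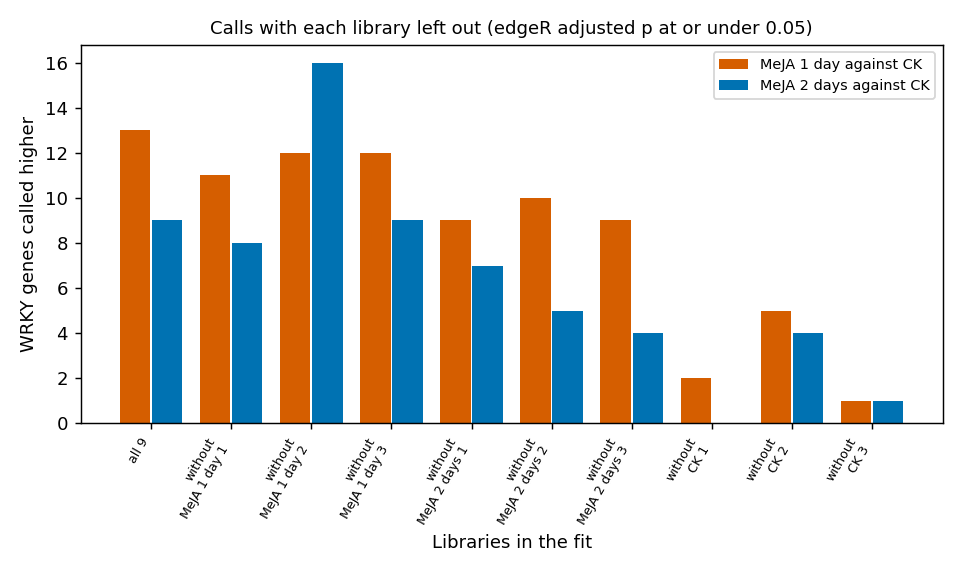
Number of WRKY genes called higher by edgeR (adjusted p at or under 0.05) against CK at MeJA 1 day and MeJA 2 days, for the full set of 9 libraries and after dropping any single one. The bars are 13 and 9 with all libraries, 12 and 16 without MeJA 1 day library 2, and lowest without CK library 1 (2 and 0) or CK library 3 (1 and 1).

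By annotation, which was looked at after the values were seen and carries no test, the genes called by edgeR were spread over several classes. Over all genes tested 4.34% rose at day 1 and 4.09% at day 2, and 13 and 9 of the 31 WRKY genes tested. The share among all genes of each class or chromosome was not computed, so none can be called particular. Of the 14 WRKY genes that the table places in the KEGG pathway for MAPK signalling of plants 7 rose at day 1 and 4 at day 2, and of the 15 placed only in that for plant-pathogen interaction 6 and 5 rose. Of the 3 in neither pathway, of which 2 were tested, 0 rose by edgeR. Among the 5 genes with jasmonic acid in their gene ontology terms (PchiChr10G283510, PchiChr12G329840, PchiChr12G332880, PchiChr12G332970 and PchiChr12G332980), 0 were called by edgeR at either day. DESeq2 called 2 of these 5 at both days, PchiChr12G329840 higher (adjusted p = 0.000368 and 0.000546) and PchiChr12G332980 lower (adjusted p = 0.000404 and 0.00108), and the first of them is also one of the 3 in neither pathway. Over all 26827 genes DESeq2 called 3751 at day 1 and 3932 at day 2, in either direction. Among the 5 with a response to chitin, a fungal wall polymer, 4 rose at day 1 and 3 at day 2. By chromosome, 4 of 5 tested genes on chromosome 10, 4 of 9 on chromosome 9 and 1 of 9 on chromosome 12 rose at day 1.

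The WRKY genes not yet described passed at neither day. PchiChr9G270930 had 25.0 to 39.3 FPKM over the 6 treated libraries and 27.2 to 30.6 FPKM in CK (edgeR adjusted p = 0.243 and 0.786). PchiChr12G327580, described as WRKY72, a factor of basal immunity in Arabidopsis and tomato, had 0.527 to 1.81 FPKM at day 1, 0.587 to 0.999 FPKM at day 2 and 0.192 to 0.334 FPKM in CK, with no overlap, and did not pass (edgeR adjusted p = 0.0595 and 0.115). PchiChr5G141470, PchiChr12G332880 and PchiChr12G332970 stayed at or under 6.39 FPKM, PchiChr12G332910 ran from 7.64 to 32.8 FPKM and PchiChr9G248170 had at most 19 counts.

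Genes that act around WRKY factors were taken from text patterns on the descriptions. For each list and day, at most the 2 called genes of lowest p are named. A gene named at 1 day alone may therefore also have been called at the other. Their counts stand against 4.34% of all genes called higher at day 1 and 4.09% at day 2, and their medians against 0.03 on the log2 scale at both days. Among 41 tested genes of calcium sensing, which includes the kinases that phosphorylate some WRKY factors, 4 rose at day 1 and 3 at day 2 and 0 fell, with median log2 fold changes of 0.18 and 0.21. The called gene with the lowest p was calcium-dependent protein kinase 10 (PchiChr2G047470), with 93.8, 96.2 and 110 FPKM at day 1, 95.7, 57.9 and 73.5 FPKM at day 2, and 23.6, 20.5 and 19.9 FPKM in CK (log2 2.36 and 1.93, edgeR adjusted p = 0.00447 and 0.00758). Another, calcium-dependent protein kinase 20-like (PchiChr2G052790), rose by 2.86 and 2.44 (edgeR adjusted p = 0.00976 and 0.0144). Of 9 VQ-motif proteins, partners that bind the WRKY domain, 2 rose at each day (medians 1.23 and 1.24). VQ9 (PchiChr9G251070) had 62.5, 68.1 and 66.8 FPKM at day 1, 59.6, 53.6 and 71.6 FPKM at day 2, and 34.9, 27.1 and 30.8 FPKM in CK, and rose by 1.23 and 1.11 on the log2 scale (edgeR adjusted p = 0.0105 and 0.0139). At day 1 VQ8 (PchiChr3G080600, edgeR adjusted p = 0.0378) and at day 2 VQ4 (PchiChr12G333880, edgeR adjusted p = 0.0484) rose as well.

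Of 11 MAP kinase cascade genes 3 rose at day 1 and 0 at day 2 (medians 0.62 and 0.25). They included PchiChr9G272150, a MAP kinase kinase kinase, with 2.93, 29.1 and 4.23 FPKM at day 1, 6.70, 5.33 and 5.09 FPKM at day 2 and 0.166, 0.191 and 0 FPKM in CK (log2 6.85 at day 1, edgeR adjusted p = 0.0342), where day 1 library 2 was again the highest, and PchiChr7G193100 (log2 1.41, edgeR adjusted p = 0.0428). In salicylate signalling 1 of 5 rose at both days (medians 0.45 and 0.55), NPR3 (PchiChr10G275310), an adaptor of the salicylate receptor family, by 1.49 and 1.57 (edgeR adjusted p = 0.0160 and 0.0156). Of 109 immune receptors 5 rose at day 1 and 4 at day 2 (medians 0.19 and 0.54), a share near that of all genes. Those that passed included, at both days, a truncated TIR-NBS-LRR protein (PchiChr7G196470, log2 1.99 and 2.32, edgeR adjusted p = 0.0117 and 0.00973). In jasmonate signalling 2 of 11 rose at day 1 and 3 at day 2 (medians 0.39 and 0.12), among them MYC2a (PchiChr2G047860), the regulator of jasmonate responses, with 28.9, 39.3 and 36.1 FPKM at day 1, 40.1, 41.1 and 40.5 FPKM at day 2 and 7.26, 9.90 and 5.19 FPKM in CK (edgeR adjusted p = 0.00718 and 0.00758). A TIFY9 gene (PchiChr3G086840) rose at day 1 (log2 5.96, edgeR adjusted p = 0.0283) and a JAZ gene (PchiChr12G333780) at day 2 (log2 1.39, edgeR adjusted p = 0.0277), both of the family of jasmonate repressors. The TIFY9 gene had 95.4, 728 and 191 FPKM at day 1, 148, 626 and 303 FPKM at day 2, and 7.67, 9.28 and 1.87 FPKM in CK. The JAZ gene had 80.5, 74.3 and 126 FPKM at day 1, 109, 156 and 144 FPKM at day 2, and 59.5, 56.5 and 55.7 FPKM in CK. Among the immune receptors PchiChr1G002830 (log2 1.46 at day 1, edgeR adjusted p = 0.0136) and PchiChr1G019480 (log2 2.78 at day 2, edgeR adjusted p = 0.00973) rose as well. No gene of these 6 lists fell at either day, and no gene differed between the days.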

How the data were processed

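The authors deposited 1 table of all genes with, for each of the 9 libraries, an estimated count and an FPKM value. Per the submitters' processing notes, fastp, HISAT2 and HTSeq were used; no source used here gives versions, genome build, strand use or settings. The deposited counts behave as estimated counts rounded up: for 400 low values set against FPKM, 100% exceeded the FPKM-proportional count by 0 to 1 (tolerance 0.05). How such estimates came from the tools named, and how shared reads were treated, is not known here. The deposited counts were used as they stood, in edgeR 4.0.16 (R 4.3.3), with a two-sided quasi-likelihood test and TMM. Genes were filtered by filterByExpr with a minimum count of 10, and 1 fit held all 9 libraries, with no covariates. P-values were adjusted by Benjamini-Hochberg over all 22384 genes passing the filter, at a threshold of 0.05. The fit was tested on simulated counts drawn with its own estimates of the spread. These held no library that stood apart as day 1 library 2 does, so they do not cover that case. FPKM served for the levels printed. Where CK had 0 counts, 3 counts for the whole group served as a floor, covering counting error alone. Alternatives were DESeq2 1.42.0, RLE size factors, no filter, only the compared groups, limma 3.58.1 on log2(FPKM + 1) or log2(FPKM + 0.1), a replicate block, and each library left out. The members, lists and tests were chosen with earlier results of these data known. Values in every library are given for WRKY genes called in any comparison, the named chromosome 9 copies and genes called only without day 1 library 2, and for the 3 most abundant others. Levels of other members, also given for some of them, were chosen after they were seen.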

Additional observations from a re-analysis of the deposited data

How the results depend on the processing

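The count of 13 WRKY genes higher at day 1 stayed within 1.5 times under RLE size factors, DESeq2, no filter and the limma fits, and was 6 with only the 2 groups compared. Over all genes, in either direction, the main fit called 1196 of 22384 at day 1. DESeq2 called 3751 of 26827 there, and the fit of 2 groups 534 of 21595. With each library left out the WRKY count ran from 1 to 12, and the count over all genes from 134 to 1193. The count of 9 at day 2 was 15 with DESeq2. It ran from 0 to 16 with each library left out, and the other alternatives kept it within 1.5 times. Over all genes, in either direction, the main fit called 1107 of 22384 at day 2 and DESeq2 3932 of 26827. With each library left out the day 2 count over all genes ran from 48 to 2893. For day 2 against day 1 every alternative gave 0. DESeq2 and the limma fits also called PchiChr12G332980 lower at both days. Among the 20 WRKY genes followed singly no estimate against CK changed sign in any alternative, with 107 values losing a call and 36 gaining one, and 523 keeping theirs; the cause was not tested. Among the other 11 tested WRKY genes 6, called in none of the fits concerned, changed sign in at least 1 alternative: PchiChr12G332880, PchiChr12G332970, PchiChr3G094160, PchiChr3G094170, PchiChr9G248170 and PchiChr9G270930. Without day 1 library 2 the day 1 estimate of PchiChr3G094170 was -1.02, against 1.94 with it. Those of PchiChr12G332880, PchiChr3G094160 and PchiChr9G248170 were -0.50, -0.11 and -0.34 without it, against 0.28, 0.14 and 0.02 with it. Deviations of same-numbered libraries from their group means correlated at -0.123 to -0.0888 between day 1 and CK and -0.00359 to 0.140 between day 2 and CK. Between day 2 and day 1 they correlated at -0.0181 to 0.307. The log2 CPM of day 1 and day 2 correlated at 0.958 for library 1, 0.795 for library 2 and 0.959 for library 3. The labels name no pairing, and these values cannot decide whether same-numbered libraries were paired. With the replicate number as a block, 8 WRKY genes were higher at day 1, 9 at day 2 and 0 differed between the days. Over all 22384 genes that fit called 747 at day 1 and 865 at day 2, in either direction, and 0 between the days. The WRKY genes of fewest counts, such as PchiChr9G253820 and PchiChr9G253880, have the widest relative counting error; whether depth decided their calls was not tested.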
